A study of Mus musculus with 6 samples.

Results

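The genes described here code for the plasminogen activator urokinase and its receptor, for coagulation proteins, for 2 serpin protease inhibitors and for thrombospondin 1, in BV-2 cells with and without lipopolysaccharide (LPS). The 9 members are Plau, Plaur, Serpinb2, Serpinb1a, F13a1, F10, F3, F7 and Thbs1, out of 22180 genes with a row of their own in the table. Rows were found by gene symbol, and a gene with several rows would have had its row chosen by the highest mean over the 6 arrays. This choice never arose, since each of the 9 genes had exactly 1 row naming it alone. A further row, which names Serpinb10 and Serpinb2 together, was kept apart.

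BV-2 is a mouse microglial line made by infection with a retrovirus carrying raf and myc oncogenes, so all arrays come from 1 transformed line and not from primary microglia. The arrays held 3 RNA samples of control cells, labelled as resting, and 3 of cells given LPS of Escherichia coli O111:B4 at 1 µg/mL for 24 h, measured on Affymetrix whole-transcript arrays. No genetic change separates the groups, and the labels used here give no collection time for the controls. Nothing in the labels says that replicates were separate cultures, so p-values reflect only how far these arrays differ, and that may be technical.

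Urokinase, the product of Plau, cleaves plasminogen to plasmin, a protease that dissolves fibrin and acts on extracellular matrix, and its receptor (Plaur) holds it at the cell surface. Serpins are inhibitors that trap a serine protease in a covalent complex. In coagulation, tissue factor (F3) binds factor VII (F7), the complex activates factor X (F10), thrombin then forms fibrin, and the A subunit of factor XIII (F13a1), a transglutaminase, crosslinks the fibrin strands. Factors VII and X are made mainly by liver, while macrophages are known to make urokinase, its receptor and the factor XIII A subunit.

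The values are log2 expression per transcript cluster, the group of probes for 1 transcription unit, as the authors deposited them. Array medians lay between 2.88 and 2.97 on this scale. As a guide to background, the means of 1443 rows for olfactory, vomeronasal and taste receptors had a 95th percentile of 3.08, called the receptor guide below. LPS against control was fitted with limma over all 41345 rows, and a row was called at a Benjamini-Hochberg adjusted p under 0.05. As a check of the LPS label, Acod1, the enzyme that makes itaconate, was at 4.12 ± 0.60 in control and 10.72 ± 0.08 after LPS (log2 level, SD, n = 3). Il1b, the other gene of this check, was at 3.63 ± 0.77 in control and 9.06 ± 0.32 after LPS. Of 12 microglia and macrophage markers, 11 had a row. Cx3cr1 and Aif1 were the lowest, with means over 6 arrays of 3.70 and 3.97, and all 11 lay above the receptor guide. None of 8 hepatocyte, 5 astrocyte or 7 neutrophil markers did, and of the other lists Pf4 (1 of 5 platelet markers with a row), Kdr (1 of 7 endothelial) and Col1a2 and Pdgfrb (2 of 7 fibroblast) did. The list means of hepatocyte markers ran from 2.31 to 2.44 in control and from 2.28 to 2.32 after LPS, and those of platelet markers from 3.37 to 4.20 and from 3.40 to 3.90 (log2 level).

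Over the 9 genes, the most marked differences were lower levels after LPS of F13a1, Serpinb1a and Plau, each without overlap between the groups, yet no gene passed the test over all rows. The limma fit called 0 members higher and 0 lower, where it called 80 of all rows higher, or 0.193%, and 0 lower, or 0%. At an unadjusted p under 0.05, limma had 1 member higher, Thbs1, and 3 lower, against 4.98% and 1.4% of all rows. LPS values lay wholly below control for 3 members and wholly above for 1, where 3.48% of all rows lay below and 7.74% above. The median log2 fold change of the 9 genes was -0.03, against 0.03 over all rows. As the genes were chosen with results of these arrays known, nothing is read from these counts. In such bulk RNA, fewer cells that express a gene and less RNA per cell cannot be told apart.

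**Figure D1:**
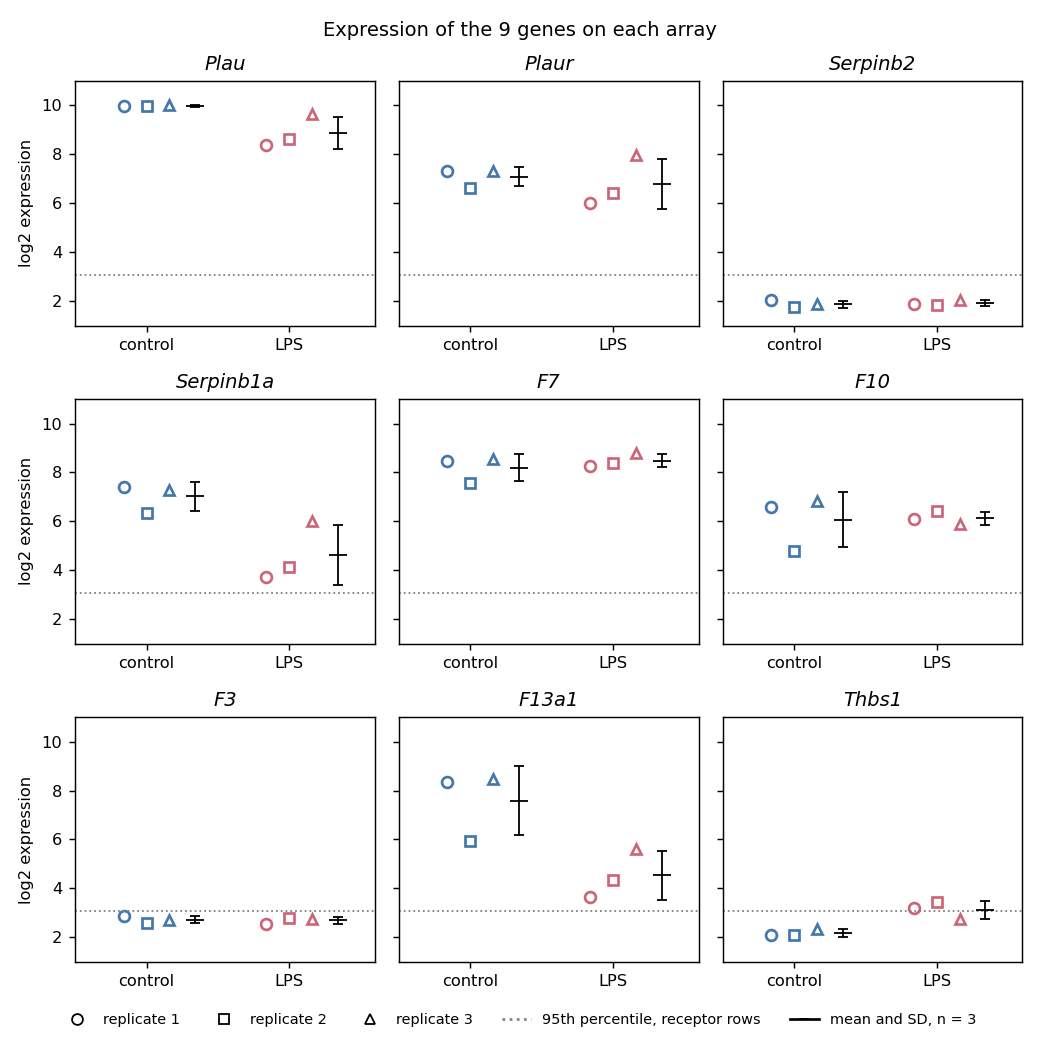
Log2 expression (vertical axis) of each of the 9 genes on the 3 control and 3 LPS arrays, with symbols for replicate number, bars for mean and SD (n = 3) and a dotted line at the receptor guide of 3.08. F13a1, Serpinb1a and Plau lie lower on all LPS arrays than on any control array, and Serpinb2 and F3 stay under the guide on all 6 arrays.

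Plau, which codes for urokinase, gave 9.97, 9.96 and 10.03 in control replicates 1 to 3 and 8.37, 8.65 and 9.63 in LPS replicates 1 to 3 (log2 level). The controls were nearly identical, and all LPS arrays were lower, with LPS replicate 3 closest to the controls. The means were 9.99 ± 0.03 and 8.88 ± 0.66 (SD, n = 3), and the log2 fold change was -1.11 (SE 0.32, 95% interval -1.87 to -0.34, adjusted p in limma = 0.50), or 2.15-fold lower. Without LPS replicate 3 it was -1.48 (adjusted p in limma = 0.056), within a range of adjusted p over the alternatives of 0.048 to 1.00.

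Plaur, the urokinase receptor, was measured at 7.32, 6.64 and 7.32 in control and 6.02, 6.41 and 7.96 after LPS (log2 level). LPS replicates 1 and 2 lay below every control array and LPS replicate 3 above every one, so the groups overlapped. Its log2 fold change was -0.30 (SE 0.50, 95% interval -1.49 to 0.90, adjusted p in limma = 1.00), and an interval this wide leaves changes of either direction possible. It turned to 0.09 without LPS replicate 1 and was -0.88 without LPS replicate 3.

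The wider plasminogen list had 10 of 14 genes with a row of their own, 5 of them above the receptor guide, and limma called 0 higher and 0 lower, with 0 also at an unadjusted p under 0.05. Its median log2 fold change was -0.05. The second plasminogen activator, Plat, went from 3.13 ± 0.15 to 3.06 ± 0.18, close to the receptor guide, and plasminogen itself, Plg, had 2.25 ± 0.30 and 2.36 ± 0.06, below it (log2 level, SD, n = 3). S100a10 and Anxa2, which form a surface complex that binds plasminogen, were both well above the guide. S100a10 went from 9.10 ± 0.60 to 8.56 ± 0.25 (log2 fold change -0.54, SE 0.31), and Anxa2 from 8.05 ± 0.93 to 7.88 ± 0.02 (log2 fold change -0.17, SE 0.43). The direction for Anxa2 turned without control replicate 1 or 3, and that for Plat without control replicate 1. Plgrkt had the largest difference on the list, from 6.18 ± 0.54 to 6.76 ± 0.17 (log2 fold change 0.58, SE 0.28, adjusted p in limma = 0.85). Its groups were separate by only 0.03.

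Serpinb2 codes for plasminogen activator inhibitor 2, an inhibitor of urokinase that is known as an LPS-induced gene of macrophages. It gave 2.03, 1.74 and 1.86 in control and 1.87, 1.85 and 2.04 after LPS (log2 level). All 6 values lay under the receptor guide and the groups overlapped, with a log2 fold change of 0.04 (SE 0.14, 95% interval -0.30 to 0.38, adjusted p in limma = 1.00). The row shared with its neighbour Serpinb10 had means of 1.78 and 1.90 and a log2 fold change of 0.12, also under the guide. A signal at background may understate a change, so the interval covers only what this row could measure.

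Serpinb1a codes for a serpin that inhibits elastase, cathepsin G and proteinase 3, the proteases of neutrophil granules. It was at 7.42, 6.34 and 7.30 in control and at 3.73, 4.14 and 6.03 after LPS (log2 level). Every LPS array was below every control array, but LPS replicate 3 was only 0.31 below control replicate 2. The means were 7.02 ± 0.59 and 4.63 ± 1.23 (SD, n = 3), and the log2 fold change was -2.39 (SE 0.62, 95% interval -3.86 to -0.91, adjusted p in limma = 0.42), or 5.23-fold lower. With 1 array left out it ran from -3.09 without LPS replicate 3 (adjusted p in limma = 0.071) to -1.94 without LPS replicate 1 (adjusted p = 0.64), within a range of adjusted p over the alternatives of 0.0070 to 1.00. The serine proteases on the fixed list, which are Elane, Ctsg and Prtn3 as well as Gzmb and Cma1, were all below the receptor guide on average.

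Serpinb1a stands in a row of clade B serpin genes on mouse chromosome 13, where Serpinb1c is the next gene. Of its neighbours there, 7 were looked up, each with a row of its own on the array. The remaining clade B genes of this chromosome are not covered here. Serpinb1c, a close copy of Serpinb1a, went from 4.27 ± 1.05 to 3.77 ± 0.98 and was lowest on LPS replicate 3 at 2.64, the LPS array on which Serpinb1a was highest (log2 level, SD, n = 3). Probes for such copies may share signal, which was not tested. Serpinb6b and Serpinb6a had log2 fold changes of -0.25 (-0.69 without control replicate 2) and 0.05, the latter turning to -0.06 after quantile normalization. Serpinb9, an inhibitor of granzyme B, went from 4.90 ± 0.23 to 5.76 ± 0.76 (log2 fold change 0.86, SE 0.37, adjusted p in limma = 0.81), and its difference was 0.45 without LPS replicate 3 and 1.19 without LPS replicate 1. Serpinb9b had 5.84, 3.53 and 5.68 in control and 6.68, 6.87 and 7.72 after LPS, with no overlap and LPS minus control at 2.07 (SE 0.64, adjusted p in limma = 0.54), which became 1.33 without control replicate 2. Serpinb1b and Serpinb6c had 0.63 and -0.07 and lay near or under the guide. Whether these differences differ from that of Serpinb1a was not tested.

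**Figure D2:**
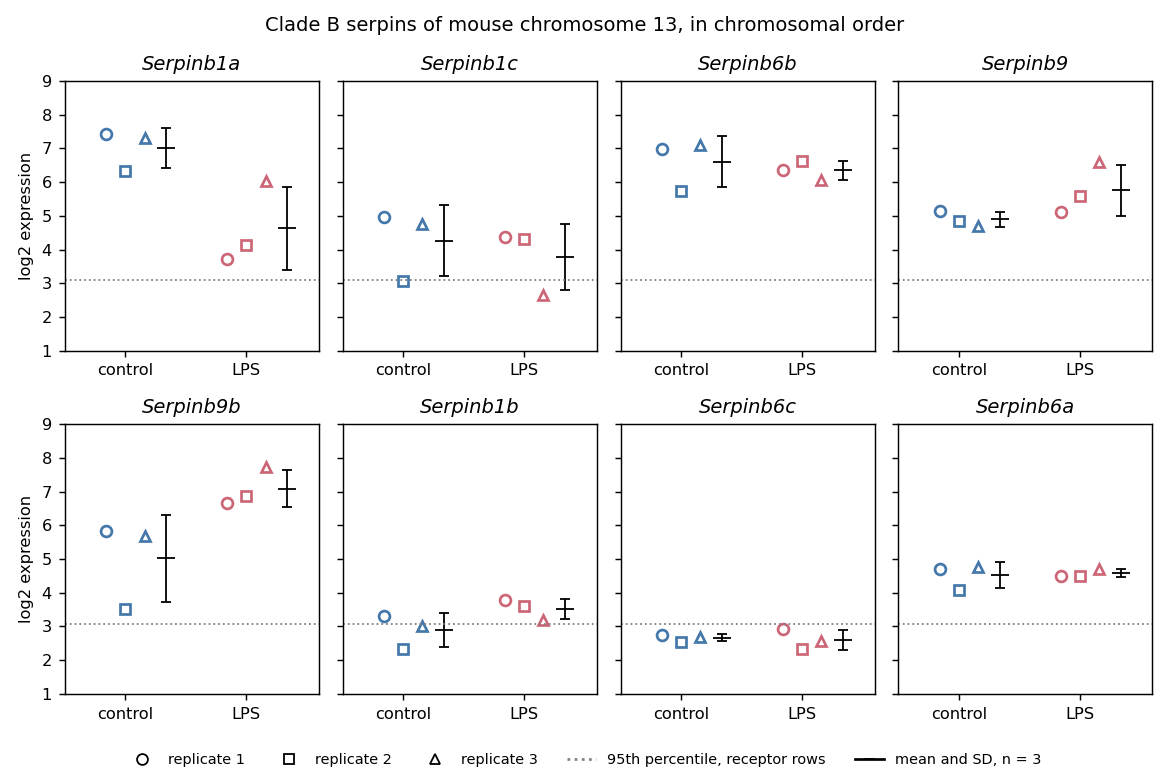
Log2 expression (vertical axis) of Serpinb1a and of the 7 neighbours looked up, on the 6 arrays, in the order of the genes on chromosome 13. Mean and SD (n = 3) are drawn, with the receptor guide as a dotted line. Serpinb1a is lower on the LPS arrays, Serpinb9b is higher on them, and control replicate 2 is the lowest control for 7 of the 8 genes shown.

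Over both serpin lists, 14 of 15 clade B genes and 9 of 11 other serpins had a row, and limma called 0 higher and 0 lower in each. At an unadjusted p under 0.05 only Serpinb9b was higher and none lower, and the medians were -0.05 and 0.0049 on the log2 fold change scale. Serpinb8, a clade B gene of chromosome 1 in the same row of genes as Serpinb2, went from 5.07 ± 0.78 to 4.66 ± 0.21, and Serping1, the complement C1 inhibitor, stayed under the receptor guide at 2.28 ± 0.15 and 2.28 ± 0.02 (log2 level, SD, n = 3). Serpinf1 was the 1 gene of the other serpins above the guide, with 5.05 ± 0.62 and 4.43 ± 0.13 (adjusted p in limma = 0.88); it is named for its level.

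F3, F7 and F10 start the extrinsic route of coagulation. F3, which codes for tissue factor, was at 2.87, 2.58 and 2.71 in control and 2.54, 2.78 and 2.75 after LPS (log2 level). All 6 values lay under the receptor guide and overlapped, with a log2 fold change of -0.03 (SE 0.15, 95% interval -0.39 to 0.32, adjusted p in limma = 1.00). Tissue factor is known from textbooks as LPS-induced in monocytes, and at 24 h no such difference was detectable here above this background.

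F7 was among the well measured members, at 8.48, 7.55 and 8.56 in control and 8.27, 8.40 and 8.78 after LPS (log2 level). Control replicate 2 stood apart as the lowest array and the groups overlapped. The means were 8.20 ± 0.56 and 8.48 ± 0.26 (SD, n = 3), and the log2 fold change was 0.28 (SE 0.30, 95% interval -0.43 to 1.00, adjusted p in limma = 1.00), which became -0.04 without control replicate 2. F10 gave 6.58, 4.78 and 6.84 in control and 6.12, 6.41 and 5.88 after LPS. Control replicate 2 was again the lowest, and all LPS values lay between it and the other controls. Its log2 fold change was 0.07 (SE 0.53, 95% interval -1.19 to 1.32, adjusted p in limma = 1.00), turning to -0.58 without control replicate 2, to -0.07 without LPS replicate 2 and to -0.05 after quantile normalization. F7 and F10 lie next to each other on mouse chromosome 8, with 0 annotated genes between them, and both had a signal above the guide on all arrays while none of the 8 hepatocyte markers did.

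The stretches of 250 bases before the RefSeq start of F13a1, F10 and F3 (build GRCm38.p6) are shown because they belong to the member with the largest difference, to the member whose upstream DNA is the gap between F7 and F10, and to one that stayed at background. RefSeq windows were at hand for 6 of the 9 genes, and these 3 genes had one that lies wholly outside the annotated gene. F13a1 has 2 RefSeq windows, and the one shown is the outer of them; the second lies inside the gene. Capitals mark matches, on either strand, to the motifs searched: AP-1 (TGANTCA), kappaB (GGNNTTTCC), PU.1 (GAGGAAGT), C/EBP (TTGCNNAA), Sp1 (GGGCGG) and the TATA box (TATAAA). None of these matches overlapped another.
F13a1, chr13:37050245-37050494, minus strand: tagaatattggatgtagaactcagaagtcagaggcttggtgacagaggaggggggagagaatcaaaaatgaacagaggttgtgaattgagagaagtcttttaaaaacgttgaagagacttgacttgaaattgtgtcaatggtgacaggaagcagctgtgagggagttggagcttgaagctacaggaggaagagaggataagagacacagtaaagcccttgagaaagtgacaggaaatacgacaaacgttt
F10, chr8:13037058-13037307, plus strand: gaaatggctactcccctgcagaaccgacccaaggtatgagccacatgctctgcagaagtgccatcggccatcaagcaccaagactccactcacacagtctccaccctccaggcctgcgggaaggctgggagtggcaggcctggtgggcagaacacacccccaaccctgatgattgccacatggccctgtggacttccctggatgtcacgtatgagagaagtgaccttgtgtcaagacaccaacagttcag
F3, chr3:121723287-121723536, plus strand: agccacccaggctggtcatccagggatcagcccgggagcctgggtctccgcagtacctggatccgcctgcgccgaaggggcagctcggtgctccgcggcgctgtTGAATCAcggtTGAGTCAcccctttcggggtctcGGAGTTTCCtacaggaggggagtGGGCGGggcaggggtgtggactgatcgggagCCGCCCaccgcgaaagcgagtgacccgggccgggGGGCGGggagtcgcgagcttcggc
The F3 window held 2 AP-1 matches, whose first letters lie 146 and 135 bases before the start, 1 kappaB match at 112 and 3 Sp1 matches. Among 32851 RefSeq windows of this length, 6.75% held an AP-1 match, 4.93% a kappaB match and 32.7% an Sp1 match. The kappaB match depends on the letters chosen: a form with 1 more G in front, searched first and shortened once its result was known, had 0 matches in the F3 window and was held by 1.41% of windows. No motif searched was found in the F10 window or in the F13a1 window shown, where the shares over all windows of the other 3 were 2.44% for PU.1, 9.56% for C/EBP and 12.4% for the TATA box. The inner F13a1 window held 1 kappaB match, which the longer form again lacked. The windows of Plaur and Serpinb2, which overlap their own genes, held AP-1 and C/EBP matches, with Sp1 in Plaur and a TATA box in Serpinb2. That of F7, which also overlaps its gene, held no match. Apart from the longer kappaB form, other letters for these motifs were not searched. A match is a run of letters and no sign that a factor binds there. GC content was 42.8% for F13a1, 57.6% for F10 and 70.0% for F3.

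F13a1, the A subunit of factor XIII, had the largest difference of the 9 genes. Its levels were 8.36, 5.94 and 8.46 in control and 3.64, 4.32 and 5.63 after LPS (log2 level). All LPS arrays were lower than all controls, but control replicate 2 lay far from the other controls and 0.31 above LPS replicate 3. The means were 7.59 ± 1.43 and 4.53 ± 1.01 (SD, n = 3), and the log2 fold change was -3.06 (SE 0.79, 95% interval -4.93 to -1.18, adjusted p in limma = 0.42), or 8.33-fold lower. With 1 array left out it ran from -3.88 without control replicate 2 to -2.61 without LPS replicate 1, and was below 0 in each of 17 alternatives tried. The B subunit gene F13b, which liver makes, was under the receptor guide at 2.17 ± 0.06 and 1.97 ± 0.13.

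Of 16 further coagulation factors and cofactors all had a row, 7 were above the receptor guide, and limma called 0 higher and 0 lower, with 0 at an unadjusted p under 0.05 and a median log2 fold change of -0.08. The 7 were F8, F9, Vwf and the genes for processing and export of clotting factors, Ggcx, Vkorc1, Lman1 and Mcfd2. Ggcx and Vkorc1, the carboxylase and the reductase of the vitamin K cycle that factors VII and X depend on, had log2 fold changes of -0.23 (SE 0.30) and -0.38 (SE 0.19, adjusted p in limma = 0.89). That of Ggcx became 0.02 without LPS replicate 1. F5, the cofactor of factor X, was under the guide at 2.41 ± 0.17 and 2.28 ± 0.18 (log2 level, SD, n = 3).

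The largest difference among the regulators of coagulation was that of Procr, the endothelial protein C receptor, which promotes the activation of the anticoagulant protein C. It was at 5.75, 6.04 and 5.50 in control and 7.82, 7.92 and 9.92 after LPS (log2 level), so that all LPS arrays were higher by at least 1.77 and LPS replicate 3 stood highest. The log2 fold change was 2.79 (SE 0.56, adjusted p in limma = 0.24). Without LPS replicate 3 it was 2.10 and passed (limma adjusted p = 0.044, in a range over the alternatives of 0.015 to 0.74). Of 13 anticoagulants and receptors with a row among 14, limma with all 6 arrays called 0 higher and 0 lower, and 1, Procr, was higher at an unadjusted p under 0.05. Tfpi, the inhibitor of tissue factor, was under the receptor guide, and Thbd, the thrombin-binding partner in protein C activation, went from 4.31 ± 0.38 to 3.94 ± 0.39 (SD, n = 3). The thrombin receptor F2r had 7.08, 5.18 and 7.26 in control and 6.54, 6.86 and 5.48 after LPS, with the lowest values on control replicate 2 and LPS replicate 3.

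Thbs1 codes for thrombospondin 1, a matricellular protein that binds CD36 and CD47 and activates latent TGF-beta. It gave 2.10, 2.08 and 2.36 in control and 3.18, 3.45 and 2.73 after LPS (log2 level). All controls lay under the receptor guide, and so did LPS replicate 3, while LPS replicates 1 and 2 were slightly above it. The means were 2.18 ± 0.15 and 3.12 ± 0.36 (SD, n = 3), and the log2 fold change was 0.94 (SE 0.21, 95% interval 0.44 to 1.45, adjusted p in limma = 0.32), or 1.92-fold higher, which rests on a signal at background. Its receptors were bright: Cd36 went from 8.11 ± 0.52 to 8.41 ± 0.36 and Cd47 from 8.12 ± 0.29 to 8.63 ± 0.08, the latter with no overlap and LPS minus control at 0.51 (SE 0.18, adjusted p in limma = 0.65). Without control replicate 2 that of Cd36 was -0.01. On the list of thrombospondins, their receptors and transglutaminases limma called 0 of 11 in either direction, and Cd47 alone was higher at an unadjusted p under 0.05. Tgm2, the tissue transglutaminase, had 3.13 ± 0.14 and 3.43 ± 0.26.

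**Figure D3:**
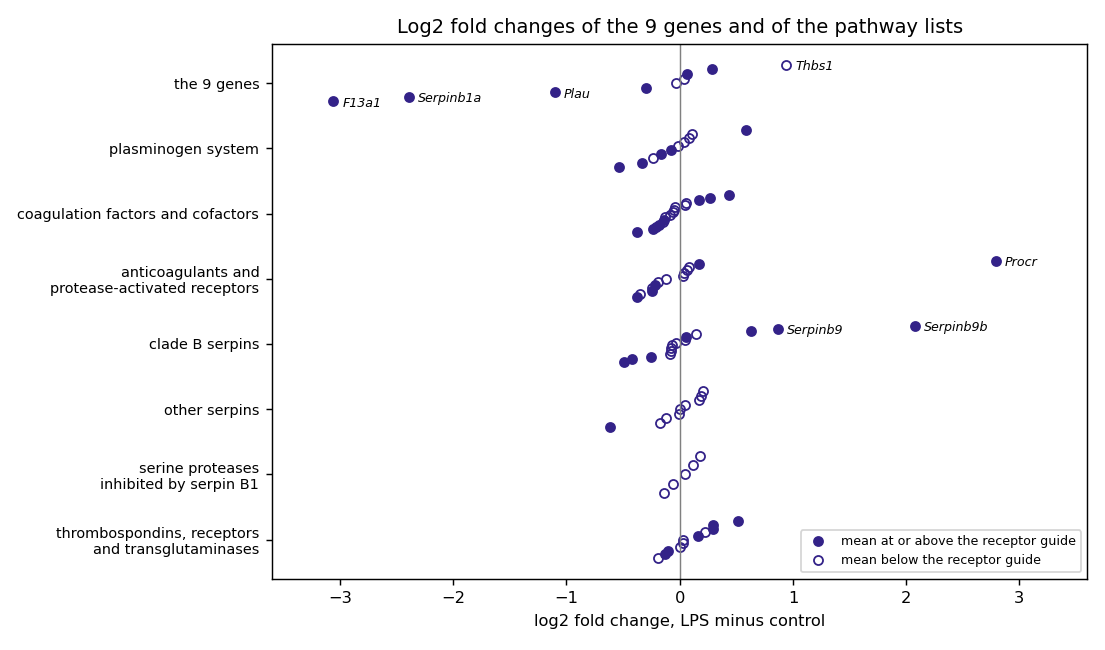
Log2 fold changes (horizontal axis) of the 9 genes and of the 78 genes with a row of their own on 7 pathway lists, each point a gene, filled where its mean over 6 arrays reached the receptor guide. F13a1, Serpinb1a and Plau stand out to the left and Procr and Serpinb9b to the right, while limma with all 6 arrays called none of them.

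Across all pathway lists, 78 of 86 genes had a row, 31 of these were above the receptor guide, and the median log2 fold change was -0.02. Limma called 0 higher and 0 lower, and at an unadjusted p under 0.05 it had 3 higher (Procr, Serpinb9b and Cd47) and 0 lower.

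Control replicate 2 was the lowest control for all 9 genes, and LPS replicate 3 was the highest LPS array for 6 of 9. The shares of all rows with these orders were not counted, and Serpinb2, F3 and Thbs1 lay below the receptor guide on average. Control replicate 2 differed from the mean of control replicates 1 and 3 by -2.47 for F13a1, -1.93 for F10, -1.02 for Serpinb1a, -0.97 for F7, -0.68 for Plaur and -0.04 for Plau (log2). Over the 19060 rows above the receptor guide this difference had a median of -0.26 and a range from the 5th to the 95th percentile of -1.26 to 0.94, so F13a1 and F10 lay outside it. LPS replicate 3 differed from the mean of the other LPS replicates by 2.10 for Serpinb1a, 1.74 for Plaur, 1.65 for F13a1, 1.13 for Plau, 0.44 for F7 and -0.39 for F10. Over the same rows the median was 0.14 and the range -0.65 to 1.23, with Serpinb1a, Plaur and F13a1 outside. The controls of Plau spanned only 0.06.

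**Figure D4:**
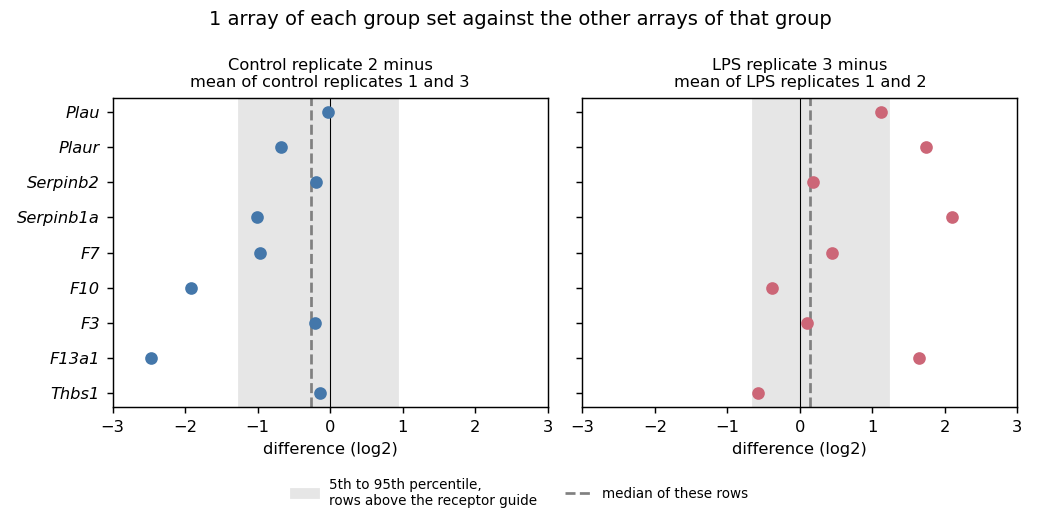
Difference in log2 expression (horizontal axis) between control replicate 2 and the mean of the other controls (left) and between LPS replicate 3 and the mean of the other LPS arrays (right) for each of the 9 genes. Shading spans the 5th to 95th percentile and dashes the median of the 19060 rows above the receptor guide, and F13a1 is the 1 gene outside the shading in both panels.

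With both of these arrays left out, a setting chosen with the data known, limma called 3 members lower and 0 higher, where 0.162% of all rows were called lower and 0.368% higher. The log2 fold changes were then -4.43 for F13a1 (adjusted p in limma = 0.0069), -3.42 for Serpinb1a (adjusted p = 0.0070) and -1.49 for Plau (adjusted p = 0.048), each with 2 arrays per group. In each of these 3 genes control replicate 2 was the lowest control and LPS replicate 3 the highest LPS array. Leaving both out could therefore only widen the differences, so nothing is read from these calls. Over the alternatives, the limma adjusted p ran up to 0.99 for F13a1 and 1.00 for Serpinb1a and Plau. With these arrays kept as a block of their own, 0 members were called and the 3 had limma adjusted p between 0.27 and 0.32. Plaur had -1.10 and Thbs1 1.09 without both arrays, neither called (limma adjusted p = 0.11 for each). Over all rows, control replicate 2 correlated at 0.968 with LPS replicate 3, against 0.960 and 0.959 with control replicates 1 and 3. Its correlations with LPS replicates 1 and 2 were lower, at 0.955 and 0.956. Control replicates 1 and 3 correlated at 0.982 with each other. Whether control replicate 2 and LPS replicate 3 differ from their groups for a technical reason was not tested.

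**Figure D5:**
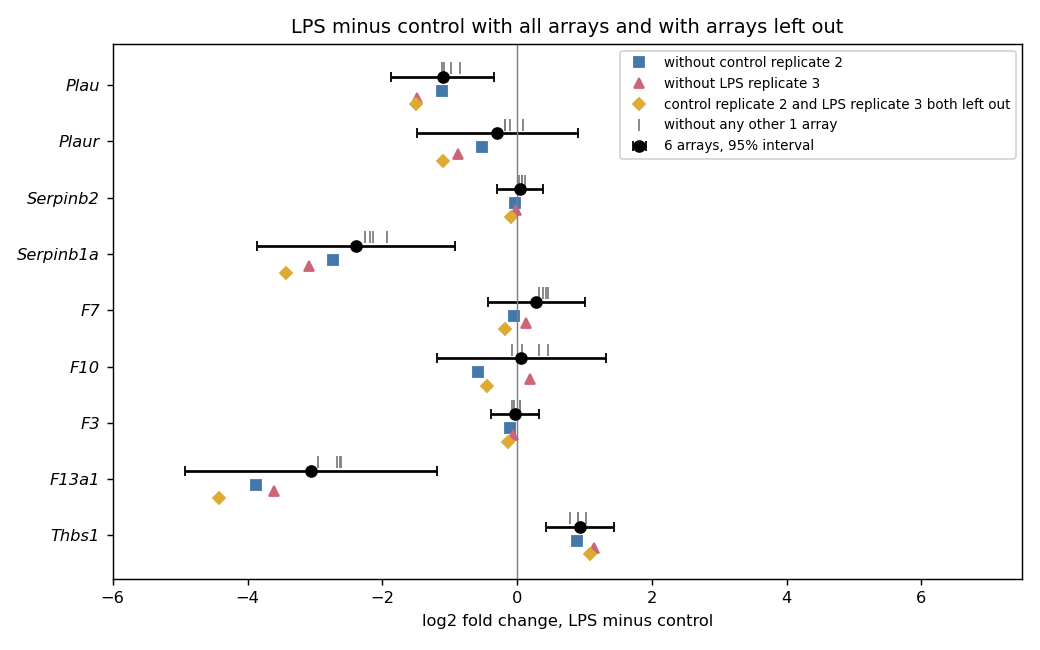
Log2 fold change of LPS over control (horizontal axis) for each of the 9 genes with all 6 arrays (black, 95% interval of the limma fit) and with arrays left out. For F13a1, Serpinb1a and Plau all points lie below 0, for Thbs1 all lie above 0, and for the other 5 genes they lie on both sides.

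For the 3 members with the largest absolute difference, the genes whose levels followed them most closely over the 6 arrays were sought among 10890 others above the receptor guide. Closest to F13a1 were Abca9, Rin2 and Cd28, with Pearson's r of 0.999, 0.996 and 0.995. Closest to Serpinb1a were Mef2c, St8sia4 and Gpr183, with r of 0.998, 0.997 and 0.996, and closest to Plau were Lfng, 2310040G24Rik and Laptm5, with r of 0.993, 0.993 and 0.991. At a looser cutoff, 71, 61 and 43 of the genes searched had an r over 0.95 with F13a1, Serpinb1a and Plau. These r describe 6 arrays that share group and array differences.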

How the data were processed

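Expression was measured on 6 arrays, 3 control and 3 LPS. Per the submitters' processing notes, the authors used Affymetrix Expression Console to make the deposited log2 values, 1 per transcript cluster; version, background correction, normalization and genome build are not given in the sources used here. Of 41345 rows, 23521 named 1 gene, 1814 several and 16010 none, by the platform annotation. No value was changed or filtered. LPS was compared with control over all rows with limma 3.58.1 in R 4.3.3 (lmFit, eBayes), adjusted by Benjamini-Hochberg; the fit was tested on simulated data. The number of arrays limits the precision. Promoter sequences come from RefSeq (GRCm38.p6), which held windows for 6 of the 9 genes. The naming rule took the 9 genes, pathway genes listed by name, any pathway gene called, and Acod1 and Il1b as treatment checks. For 3 genes it also took those of the most similar profile. Marker genes above the receptor guide, the chromosome 13 neighbours of Serpinb1a and further pathway genes (such as F8, F13b and Serpinf1) fall outside it and were named with their values known. The members, lists and tests were chosen with earlier results of these data known. Alternatives covered scaling, filters, variance models, a replicate block and left-out arrays.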

Additional observations from a re-analysis of the deposited data

How the results depend on the processing

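Fits with 1 array left out rest on 2 arrays in that group, and no version, background method or scan batch could be tested. F13a1, Serpinb1a, Plau and Thbs1 kept their direction under all alternatives tried, 17 for the first 3 and 16 for Thbs1. No alternative called a member except the one without control replicate 2 and LPS replicate 3, which called 3 lower (F13a1 -4.43, Serpinb1a -3.42, Plau -1.49). For these 3 genes that setting could only widen the differences. Rows called higher numbered 80 in limma with all arrays, 132 with array weights, 1 without moderation of the variance, 152 without both of these arrays and 134 with them as a block, and 67 were lower without both. Without 1 array, 15 to 76 rows were higher, 0 to 14 lower, and 0 or 1 pathway gene was higher. Procr was the 1 pathway gene called higher without both arrays and with them as a block.

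Gene by gene, the alternatives were followed only for the members and for some of the named pathway genes. Among these, log2 fold changes of 13 genes turned sign in at least 1 fit. Without 1 array they ran from -0.88 to 0.090 for Plaur, -0.027 to 0.11 for Serpinb2, -0.58 to 0.45 for F10, -0.10 to 0.045 for F3, -0.039 to 0.47 for F7, -0.18 to 0.0089 for Plat, -0.047 to 0.25 for Plg, -0.70 to 0.12 for Anxa2, -0.57 to 0.020 for Ggcx, -0.88 to 0.19 for F2r, -0.17 to 0.18 for Serpinb6a, -0.039 to 0.092 for Serping1 and -0.0058 to 0.49 for Cd36. Array weights gave -0.031 for Serpinb2, -0.23 for F10, -0.011 for Plg and -0.10 for Serpinb6a. Quantile normalization gave -0.053 for F10 and -0.059 for Serpinb6a, and median centring -0.0024 for Serping1. Without both arrays the values were -0.089 for Serpinb2, -0.45 for F10, -0.19 for F7, -0.077 for Plg and -0.24 for Serpinb6a. The cause was not tested. Serpinb2, F3 and Thbs1 have no value once rows under the receptor guide are left out.

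With the replicate number as a block, 7 rows were called higher and 0 lower, and no member was called. Deviations of same-numbered arrays correlated at 0.07, -0.26 and -0.22, so the numbers were not taken as pairs. The fit without this block had likewise called none of the 9 genes.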
